A study of Mus musculus with 6 samples.

Results

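The 10 genes described here, Egr1, Fos, Fosb, Jun, Junb, Nr4a1, Ier2, Ier3, Dusp1 and Atf3, are immediate early response genes. They were taken by gene symbol from the array's gene table of 21630 named genes. Each had 1 probe set, all 10 probe sets passed the filter on low values, and so they are 10 of the 21330 probe sets tested. Expression was measured on Affymetrix arrays in the lungs of 6 C57BL/6 mice, 8 weeks old, with 1 array for each mouse. Every mouse had been injected into the peritoneum with 100 uL of a medium once a day over 7 days. In the LN4 group (replicates 1 and 3) PC3M-LN4 cells, a metastatic derivative of the human prostate cancer line PC3, had conditioned that medium. In the PC3 group (replicates 4 and 5) it came from PC3 cells, and the Control group (replicates 2 and 4) had plain RPMI culture medium, although the labels' protocol text does not set Control mice apart. The time between the last injection and the removal of the lungs is not given in the sources used here. Values are log2 RMA signals, so a difference of 1 is a doubling. Levels of different genes are not set against each other, because probe sets differ in brightness.

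Immediate early genes are transcribed within minutes of a stimulus, without new protein synthesis, when MAP kinases and other signals reach transcription factors already bound or present in the cell. Fos, Fosb, Jun, Junb and Atf3 encode leucine zipper proteins that pair to form or modify the AP-1 transcription factor. Egr1 encodes a zinc finger transcription factor and Nr4a1 an orphan nuclear receptor, while Dusp1 encodes a phosphatase that switches MAP kinases off. In tissue, these transcripts are short-lived and respond to growth factors, mechanical stretch, stress and handling of the organ.

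Gene span, chromosome and promoter letters were not used to choose the members. Their median gene span was 3286 bases in RefSeq (GRCm38.p6), with a range from 1199 bases for Ier3 to 20894 bases for Nr4a1, against a median of 20357 bases for 16677 named genes with a tested probe set. Ier2 and Junb lie on chromosome 8, and Dusp1 and Ier3 on chromosome 17. RefSeq promoter windows, 250 bases before to 50 after the transcription start, were used for 8 members: Atf3, Dusp1, Fos, Fosb, Ier3, Jun, Junb and Nr4a1. Both strands were searched for fixed letters. TGACG, the core of the cyclic AMP response element that binds CREB, stood in 6 of the 8 windows (Atf3, Dusp1, Fos, Fosb, Junb and Nr4a1), and in 20.8% of all 32851 windows. The whole element TGACGTCA, which contains that core on both strands, stood in Dusp1 alone among the 8 and in 1.79% of all windows. GGGCGG, the core bound by SP1, stood in 7 of 8 windows and in 35.7% of all. GCGGGGGCG, a site of EGR proteins that can overlap the SP1 core, stood in Fosb and Nr4a1 and in 2.91% of all. TATAAA stood in Fos and Junb and in 13.6% of all. It began at -33 in Fos, but in Junb at 1, past the 250 bases printed below. None of the 8 windows held the letters TGACTCA of AP-1 (5.2% of all), CCGGAAG of ETS factors (8.86%), the glucocorticoid response element (0.475%), the NF-kB site (0.155%) or the CArG box of serum response factor (1.63%). A match or its absence in so short a window is a description of the letters only.

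The 250 bases before the start are printed for 4 members, 5' to 3' on the gene's own strand, from RefSeq in GRCm38.p6. Nr4a1 had the lowest value of any member relative to Control, Dusp1 and Junb differed between the conditioned media in opposite directions, and Fos is the classical immediate early gene. Capitals mark TGACG or its complement CGTCA, the whole TGACGTCA, and TATAAA. They stand for chr15:101266596-101266845 on the plus strand (Nr4a1), chr17:26508473-26508722 on the minus strand (Dusp1), chr8:84978749-84978998 on the minus strand (Junb) and chr12:85473640-85473889 on the plus strand (Fos).
Nr4a1: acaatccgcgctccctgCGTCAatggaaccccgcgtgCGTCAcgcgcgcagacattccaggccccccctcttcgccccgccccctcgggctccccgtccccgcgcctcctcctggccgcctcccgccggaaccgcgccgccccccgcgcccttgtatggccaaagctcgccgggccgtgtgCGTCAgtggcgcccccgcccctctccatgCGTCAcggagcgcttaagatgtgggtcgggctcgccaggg
Dusp1: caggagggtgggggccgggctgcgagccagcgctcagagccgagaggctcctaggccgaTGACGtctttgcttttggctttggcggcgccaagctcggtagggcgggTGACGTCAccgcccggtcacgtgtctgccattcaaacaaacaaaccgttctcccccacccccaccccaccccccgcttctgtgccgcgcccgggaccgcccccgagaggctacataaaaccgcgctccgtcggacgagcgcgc
Junb: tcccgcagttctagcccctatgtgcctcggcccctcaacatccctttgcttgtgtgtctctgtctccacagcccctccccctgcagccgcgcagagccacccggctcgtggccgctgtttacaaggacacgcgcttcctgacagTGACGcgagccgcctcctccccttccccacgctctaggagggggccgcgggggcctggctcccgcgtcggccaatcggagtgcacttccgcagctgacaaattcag
Fos: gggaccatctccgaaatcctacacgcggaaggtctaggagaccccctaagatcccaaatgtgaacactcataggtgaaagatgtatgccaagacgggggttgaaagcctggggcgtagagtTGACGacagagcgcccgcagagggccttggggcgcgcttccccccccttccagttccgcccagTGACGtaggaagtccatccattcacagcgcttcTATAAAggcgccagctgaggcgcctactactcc
The Nr4a1 stretch held the core at 4 places, the first base at -233, -213, -69 and -40 from the start. In Dusp1 the whole element began at -143, with a further core at -191. Fos held cores at -129 and -66 and TATAAA at -33, and Junb held 1 core at -106.

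The arrays differed in quality within each group. Between 35.4% and 39.8% of the exon-level probe sets were detected in LN4 replicate 1, PC3 replicate 4 and Control replicate 2, and 46.1% to 50.9% in the other array of each group. LN4 replicate 3 stood apart, with correlations across genes of 0.954 to 0.963 with the other arrays. It had 11 of 13 squamous epithelium markers and 11 of 12 skeletal muscle markers above background, taken as the 95th percentile of negative control probe sets. PC3 replicate 4 had 5 of the 13 squamous markers above it. The remaining arrays had none of either. Lung identity held in all 6: the 9 alveolar and airway markers were above that percentile on every array. The percentile lay between 7.37 and 7.69, and Jun, Nr4a1, Ier2, Ier3 and Dusp1 exceeded it on all 6 arrays. Fos exceeded it on 2 arrays, Egr1 and Junb on 1 each, and Fosb and Atf3 on none, so differences of these 5 genes were measured near the background. Ier2, at 7.83 to 8.18, and Nr4a1 in LN4 lungs, at 7.90 and 7.71, were not far above it.

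**Figure D1:**
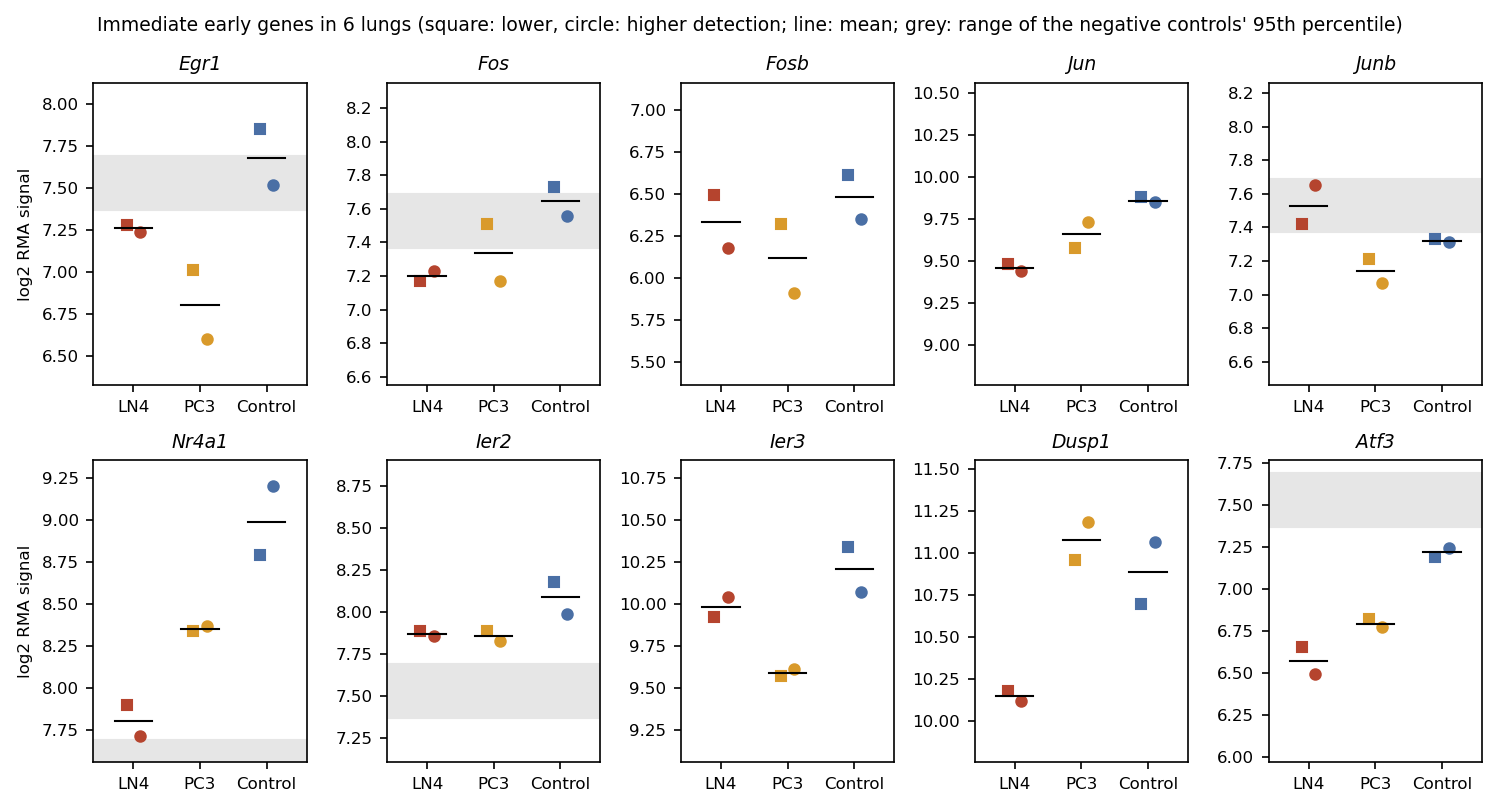
Log2 RMA signal of the 10 immediate early genes in LN4, PC3 and Control lungs, 1 point per mouse (squares, the array of lower detection in each group; circles, that of higher detection), with the group mean as a line, each panel spanning the same range of log2 units, and the 95th percentile of the negative controls (7.37 to 7.69) in grey. The Control lungs held the highest group mean in every panel except Junb and Dusp1.

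As a group, the 10 genes lay lower in lungs exposed to either conditioned medium. Against Control, 9 of 10 had a lower mean in PC3 lungs, all but Dusp1, and 9 of 10 in LN4 lungs, all but Junb, where 46.6% and 53.1% of all tested probe sets had a lower mean. Their median change was -0.33 in PC3 and -0.41 in LN4 lungs, with 0.02 and -0.02 over all tested probe sets. Both PC3 arrays lay below both Control arrays for 9 genes, as they did for 15.3% of all probe sets. For 8 genes the LN4 arrays were both under the Control arrays, as for 16.9% of all. The opposite, both arrays above Control, held for no member in PC3 lungs (16.4% of all probe sets) and for 1, Junb, in LN4 lungs (12% of all). The 2 comparisons share the Control lungs, so their likeness is not independent. Most members also varied together over the same arrays, and they were chosen with earlier results of these data known. The counts and shares are therefore a description and no test. Because whole lung was assayed, fewer cells that express a gene and less RNA per cell cannot be told apart.

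No member passed the limma fit across all 21330 probe sets (Benjamini-Hochberg adjusted p under 0.05), and neither did any other probe set (0%). At an unadjusted p under 0.05, 4 members were lower in PC3 than in Control lungs (Egr1, Nr4a1, Ier3 and Atf3), a direction and p found for 1.71% of all probe sets. That count was 1 without PC3 replicate 4 or without Control replicate 2, and 2 without PC3 replicate 5 or without Control replicate 4. In LN4 lungs 3 members were lower at that p (Nr4a1, Dusp1 and Atf3), against 1.2% of all, and the count was 1 without Control replicate 4. No member was higher at that p in PC3 lungs (0.525% of all) or in LN4 lungs (0.849% of all). Leaving out Control replicate 2 moved the PC3 median to -0.22, and leaving out PC3 replicate 4 moved it to -0.46. With both arrays that held squamous genes left out, LN4 replicate 3 and PC3 replicate 4, the medians were -0.46 in PC3 and -0.39 in LN4 lungs.

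**Figure D2:**
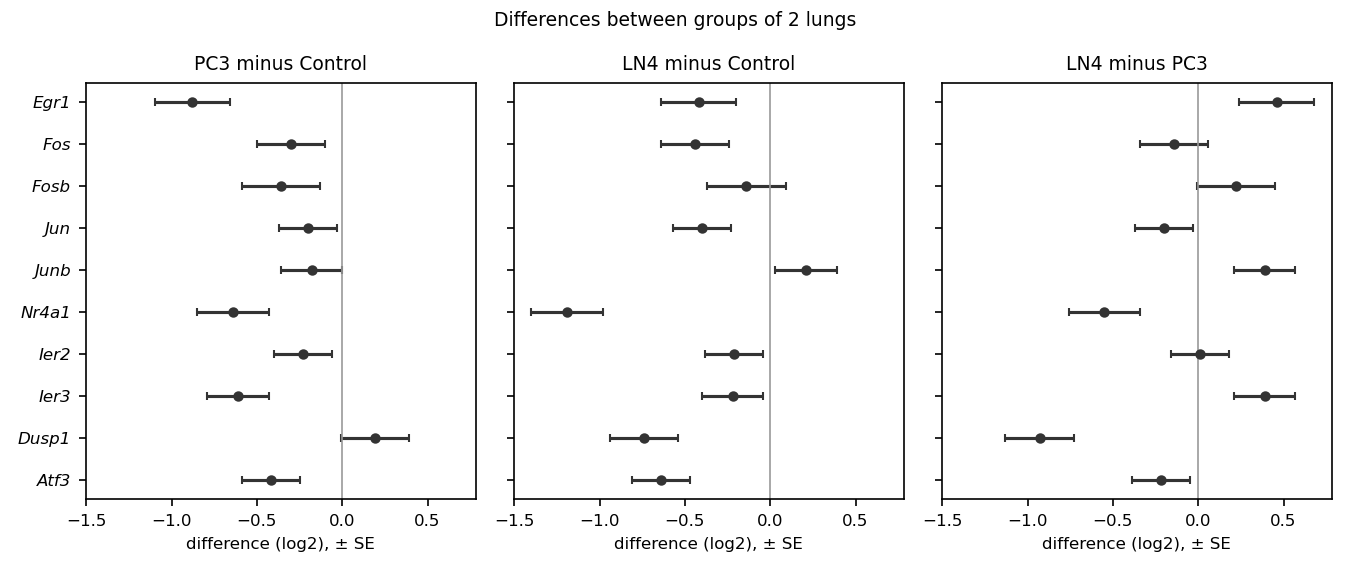
Difference between group means on the log2 scale for each gene, with bars of 1 standard error (SE) from limma, in PC3 minus Control, LN4 minus Control and LN4 minus PC3. Nr4a1 was lowest in LN4 minus Control at -1.19, Egr1 in PC3 minus Control at -0.88 and Dusp1 in LN4 minus PC3 at -0.93.

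Nr4a1, the nuclear receptor also called Nur77, showed the widest separation. It was at 7.90 and 7.71 in LN4 lungs, 8.34 and 8.37 in PC3 lungs, and 8.79 and 9.20 in Control lungs. The 3 groups did not overlap, and the order was LN4 below PC3 below Control. The LN4 values lay not far above the percentiles of the negative controls on their arrays, 7.69 and 7.37. The LN4 lungs held 43.8% of the Control level, a difference of -1.19 (SE 0.21), which ranked 2 by p among all lower probe sets but did not pass (limma adjusted p = 1). The PC3 lungs held 64.3% of the Control level, -0.64 (SE 0.21, adjusted p = 1). LN4 minus PC3 was -0.55 (SE 0.21, adjusted p = 0.842). Without LN4 replicate 1, which leaves the LN4 array with squamous and muscle genes, LN4 minus Control was -1.28. With LN4 replicate 3 and PC3 replicate 4 left out it was -1.10. That fit gave every member the same SE (0.21), a spread shared by the genes and not that of the Nr4a1 replicates.

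Egr1 is the zinc finger factor. It was at 7.28 and 7.24 in LN4 lungs, 7.01 and 6.60 in PC3 lungs, and 7.85 and 7.52 in Control lungs. No groups overlapped, but only Control replicate 2 exceeded the percentile of the negative controls, so the order of PC3 below LN4 lies among values not above background. PC3 minus Control was -0.88 (SE 0.22) and LN4 minus Control was -0.42 (SE 0.22). Neither passed (limma adjusted p = 1 for both). With LN4 replicate 3 and PC3 replicate 4 left out, which leaves 1 array in each of these groups, PC3 minus Control was -1.08. LN4 minus PC3 was 0.46 (SE 0.22, adjusted p = 0.842).

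The Fos genes encode the AP-1 subunits that bind DNA in pairs, chiefly with a Jun protein. Fos was at 7.17 and 7.23 in LN4 lungs, 7.51 and 7.17 in PC3 lungs, and 7.73 and 7.56 in Control lungs. Both Control arrays exceeded the other 4, while the LN4 and PC3 arrays overlapped. LN4 minus Control was -0.44 (SE 0.20) and PC3 minus Control was -0.30 (SE 0.20). Fosb, at 6.49 and 6.18 in LN4 lungs, 6.32 and 5.91 in PC3 lungs, and 6.61 and 6.35 in Control lungs, lay below the negative controls' percentile throughout. Its LN4 and Control arrays overlapped, and LN4 minus Control, -0.14 (SE 0.23), became 0.01 without LN4 replicate 3.

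The Jun genes encode the partners of Fos proteins. Jun was at 9.48 and 9.44 in LN4 lungs, 9.58 and 9.73 in PC3 lungs, and 9.88 and 9.85 in Control lungs. The 3 groups did not overlap, and replicates differed by less than the gaps between the LN4 and Control groups. LN4 minus Control was -0.40 (SE 0.17, limma adjusted p = 1), PC3 minus Control -0.20 (SE 0.17) and LN4 minus PC3 -0.20 (SE 0.17). Junb, which can oppose Jun at some targets, was the exception. It was at 7.42 and 7.65 in LN4 lungs, 7.21 and 7.07 in PC3 lungs, and 7.33 and 7.31 in Control lungs. Both LN4 arrays lay above both Control arrays, and both PC3 arrays lay below them. LN4 minus Control was 0.21 (SE 0.18), PC3 minus Control -0.18 (SE 0.18) and LN4 minus PC3 0.39 (SE 0.18, adjusted p = 0.842). Only LN4 replicate 3, the array with squamous and muscle markers, exceeded the percentile of the negative controls for Junb. Without that array, LN4 minus Control was 0.10.

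Atf3, a stress-induced factor that pairs with Jun proteins, was at 6.65 and 6.49 in LN4 lungs, 6.82 and 6.77 in PC3 lungs, and 7.19 and 7.24 in Control lungs. The order was that of Nr4a1 and Jun, with no overlap between groups, though every value lay under the percentile of the negative controls. LN4 minus Control was -0.64 (SE 0.17) and PC3 minus Control -0.42 (SE 0.17), both at an adjusted p of 1. LN4 minus PC3 was -0.22 (SE 0.17, adjusted p = 0.871).

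Ier2 and Ier3 are named for their immediate early response, and Ier3 acts in cell survival. Ier2 was at 7.89 and 7.86 in LN4 lungs, 7.89 and 7.83 in PC3 lungs, and 8.18 and 7.99 in Control lungs. The LN4 and PC3 lungs differed by 0.01 (SE 0.17) in Ier2, and both lay below Control, by -0.21 (SE 0.17) in LN4 and -0.23 (SE 0.17) in PC3 lungs. Ier3 was at 9.92 and 10.04 in LN4 lungs, 9.57 and 9.61 in PC3 lungs, and 10.34 and 10.07 in Control lungs. PC3 lungs were lowest, and the highest LN4 array lay only just below the lowest Control array. PC3 minus Control was -0.61 (SE 0.18), LN4 minus Control -0.22 (SE 0.18) and LN4 minus PC3 0.39 (SE 0.18, adjusted p = 0.842).

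Dusp1, the MAP kinase phosphatase, is also induced by glucocorticoids. It was at 10.18 and 10.12 in LN4 lungs, 10.96 and 11.19 in PC3 lungs, and 10.70 and 11.07 in Control lungs. Both LN4 arrays lay below the other 4, while PC3 and Control arrays overlapped. LN4 minus PC3 was -0.93 (SE 0.20), or 52.6% of the PC3 level, and ranked 6 by p among lower probe sets (limma adjusted p = 0.842). LN4 minus Control was -0.74 (SE 0.20, adjusted p = 1) and PC3 minus Control 0.19 (SE 0.20, adjusted p = 1). With LN4 replicate 3 and PC3 replicate 4 left out, which leaves 1 array in each of these groups, LN4 minus PC3 was -1.01.

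The comparison of the 2 conditioned media therefore held no common direction. In LN4 minus PC3, 5 members had a lower and 5 a higher mean, where 52.2% of all probe sets had a lower one, and their median change was -0.06, with -0.01 over all probe sets. Both LN4 arrays lay below both PC3 arrays for 4 members, Dusp1, Nr4a1, Atf3 and Jun, as for 18.1% of all probe sets. Both lay above for 3, Egr1, Junb and Ier3, as for 11.4%. At an unadjusted p under 0.05, Dusp1 and Nr4a1 were lower, against 2.93% of all probe sets, and this count of 2 was 1 without LN4 replicate 3, without PC3 replicate 4 or without PC3 replicate 5. None was higher at that p (2.2% of all). None passed adjustment over all probe sets in the limma fit. Taking the mean of the PC3 and LN4 groups against Control, 9 of 10 members were lower, with 50.1% of all probe sets, and the median was -0.34. All 4 arrays from conditioned media lay below both Control arrays for 7 members, Egr1, Fos, Jun, Nr4a1, Ier2, Ier3 and Atf3, as for 4.24% of all probe sets, and above both for none (3.37% of all). At an unadjusted p under 0.05, 4 were lower (Egr1, Nr4a1, Ier3 and Atf3), against 0.825% of all, and none was higher (0.342% of all). That count was 1 without Control replicate 2 and 2 without Control replicate 4.

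The direction of most members was the same in both kinds of array. Where both arrays of a group lay on the same side of both Control arrays, the shared direction had to follow. Most members were such cases against Control. Their counts by detection therefore largely restate that lack of overlap and are no separate check. Among the arrays of lower detection, 9 of 10 members were lower in PC3 than in Control, with a median of -0.29, and among those of higher detection 9 of 10, with a median of -0.41. In LN4 minus Control the counts were 9 and 9, with medians of -0.47 and -0.30. Nr4a1 differed by -0.89 and -1.49 in LN4 minus Control, and Egr1 by -0.84 and -0.91 in PC3 minus Control. Dusp1 in LN4 minus PC3 differed by -0.79 and -1.06. Ier3 in LN4 minus Control differed by -0.42 and -0.03. These are differences of single arrays and have no replicate check.

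**Figure D3:**
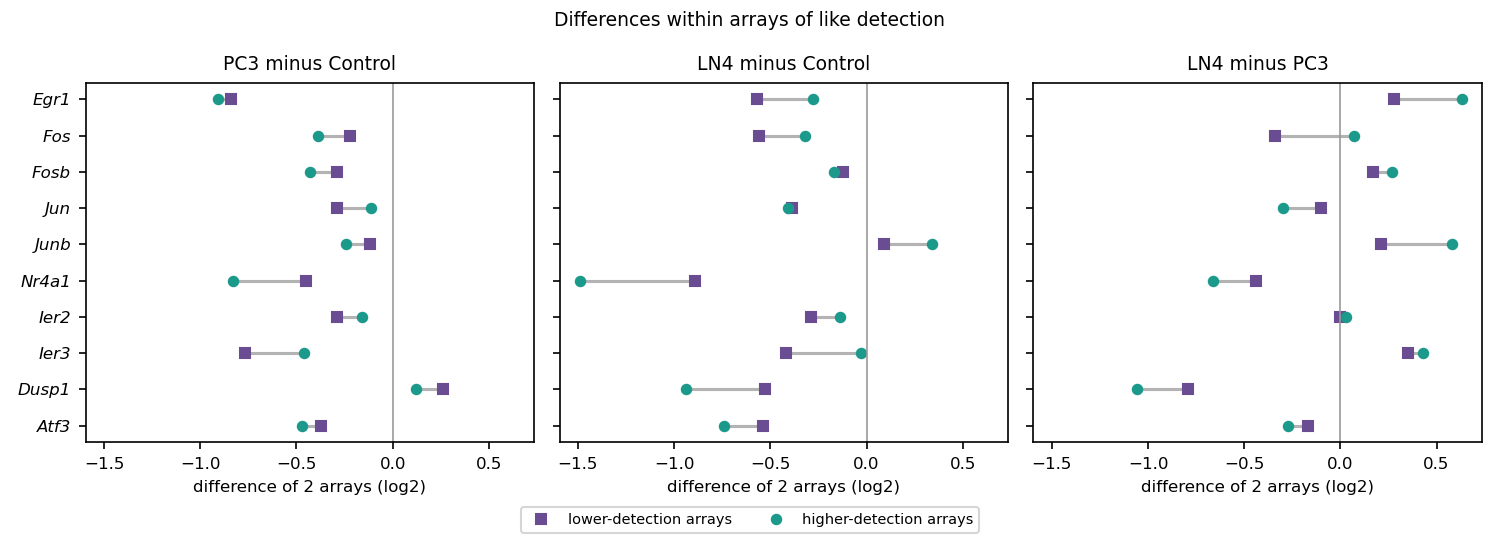
Difference between 1 array of each group on the log2 scale, for the arrays of lower detection (squares) and of higher detection (circles), in PC3 minus Control, LN4 minus Control and LN4 minus PC3. Except Junb and Dusp1, no gene had a positive difference against Control in either kind of array, whereas Fos in LN4 minus PC3 lay on both sides of 0.

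Of 19 other immediate early transcription factors, 8 were above the percentile of the negative controls on no array (Egr2, Egr3, Egr4, Fosl1, Nr4a2, Nr4a3, Maff and Npas4) and 7 on all 6. Differences of those 8 were measured near the background. The 7 ranged from -0.30 (Jund) to 0.14 (Klf6) in PC3 minus Control, and from -0.68 (Klf2) to 0.36 (Klf4) in LN4 minus Control. Klf4 was at 9.97 in LN4 replicate 3 but at 8.71 in LN4 replicate 1, with 8.86 and 9.11 in Control lungs. Of the 19, 9 had a lower and 10 a higher mean in PC3 than in Control lungs, with a median of 0.00. In LN4 lungs 8 were lower and 11 higher, with a median of 0.02. None passed. Jund, the third Jun gene, was at 9.60 and 9.37 in LN4, 9.21 and 9.32 in PC3, and 9.71 and 9.42 in Control lungs. Klf2, a factor of endothelium under flow, differed by -0.68 (SE 0.27) in LN4 minus Control. Its level was 8.93 and 8.16 in LN4 and 9.14 and 9.31 in Control lungs, and the difference was -0.21 between the arrays of lower detection and -1.15 between those of higher detection, which include LN4 replicate 3. Myc, a growth-promoting factor, had the largest difference of the list in LN4 minus Control, at 1.26 (SE 0.57, limma adjusted p = 1). It was at 6.73 and 8.74 in LN4, 6.68 and 6.70 in PC3, and 6.38 and 6.56 in Control lungs. Only LN4 replicate 3, the array with squamous and muscle markers, exceeded the percentile of the negative controls for Myc, and the difference was 0.35 between the arrays of lower detection.

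Effectors of the immediate early response were mixed. Of 28 tested, 6 were above the negative controls' percentile on no array and 16 on all 6. Of the 28, 11 had a lower and 17 a higher mean in PC3 than in Control lungs (median 0.04), and 16 a lower and 12 a higher mean in LN4 lungs (median -0.07). Ccn1, a secreted matrix protein, had the order of Nr4a1. It was at 9.40 and 9.30 in LN4, 9.78 and 9.78 in PC3, and 10.36 and 10.43 in Control lungs, without overlap. Ptgs2, the inducible cyclooxygenase, was at 7.26 and 7.51 in LN4, 7.90 and 8.17 in PC3, and 7.96 and 8.38 in Control lungs. As in Dusp1, both LN4 arrays lay below the other 4, while PC3 and Control arrays overlapped. LN4 replicate 1 was not above the negative controls' percentile. Unlike Dusp1, at 0.19, Ptgs2 had a negative PC3 minus Control, -0.14 (SE 0.22). Its LN4 minus PC3 was -0.65 (SE 0.22) and its LN4 minus Control -0.79 (SE 0.22), and neither passed. Edn1, the endothelin precursor, had a PC3 minus Control of 0.43 (SE 0.19), which did not pass, and Gadd45b, a stress response gene, was at 9.61 and 9.64 in LN4, 9.57 and 9.48 in PC3, and 9.28 and 9.39 in Control lungs.

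Feedback inhibitors other than Dusp1 had a median of 0.03 in PC3 minus Control, with 9 of 21 lower. In LN4 minus Control the median was -0.19, with 16 of 21 lower, and no gene passed. Of these 21, 5 were above the negative controls' percentile on no array. Spry1, an inhibitor of receptor tyrosine kinase signalling, was at 8.31 and 8.12 in LN4, 8.50 and 8.53 in PC3, and 8.63 and 8.76 in Control lungs. Zfp36l1, which promotes decay of AU-rich mRNAs, was at 8.35 and 8.65 in LN4, 8.69 and 8.70 in PC3, and 8.86 and 9.07 in Control lungs. Nab2, a corepressor of Egr1, was at 7.99 and 8.03 in LN4, 7.95 and 7.77 in PC3, and 8.19 and 8.15 in Control lungs. The Nab2 groups did not overlap, and the PC3 lungs were lowest. Of the 26 upstream kinases and factors, 8 were lower in PC3 and 16 in LN4 than in Control lungs, with medians of 0.13 and -0.02, and 5 of the 26 were above that percentile on no array. Elk3, an ETS partner of serum response factor, differed by -0.41 (SE 0.19) in LN4 minus Control, and Creb1, which binds cyclic AMP response elements, by 0.37 (SE 0.19) in PC3 minus Control.

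**Figure D4:**
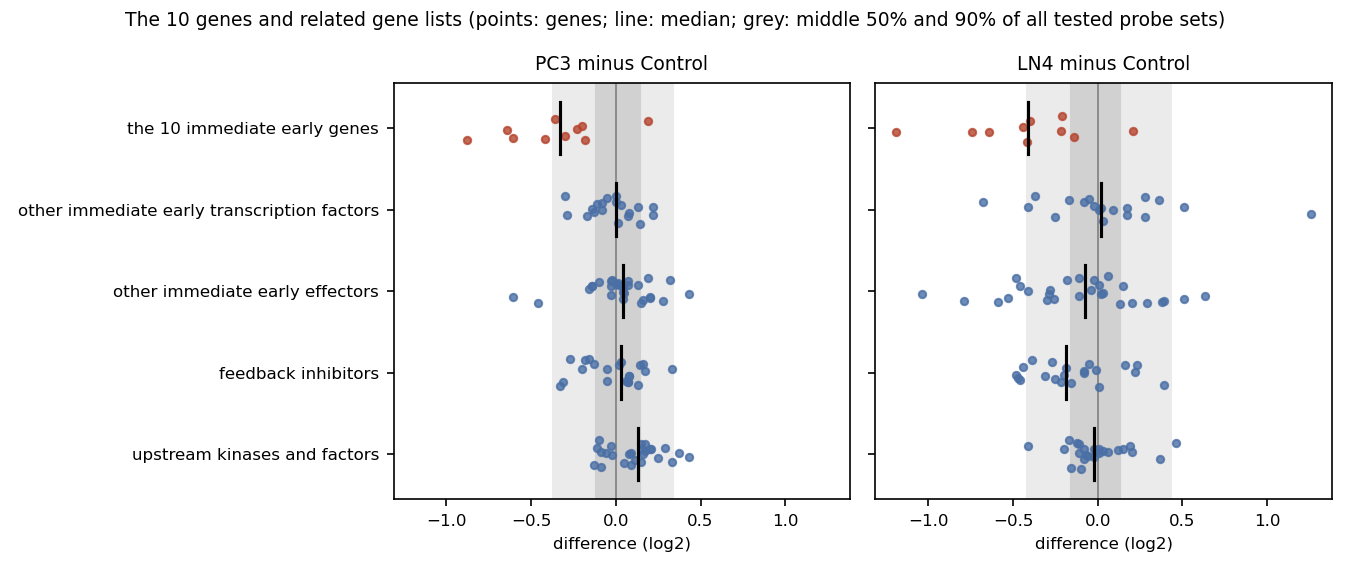
Differences on the log2 scale in PC3 minus Control and LN4 minus Control for the 10 immediate early genes (red) and 4 related lists (blue), 1 point per gene with the list's median as a line, over the middle 50% (dark grey) and 90% (light grey) of all tested probe sets. The medians of the 10 genes, of which Fos, Fosb, Egr1, Junb and Atf3 were measured near the background, were -0.33 and -0.41. Those of the 19 other immediate early transcription factors, 8 of which were above background on no array, were 0.00 and 0.02.

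Among themselves the members varied in how closely they followed the group. Over the 6 arrays, Pearson's r of each member with the mean of the other 9, each centred on its own mean, was highest for Atf3 (0.95), Ier2 (0.89), Fos (0.88), Jun (0.82) and Nr4a1 (0.79). It was 0.67 for Egr1, 0.56 for Ier3 and 0.52 for Fosb, and lowest for Dusp1 (0.16) and Junb (-0.23). The mean of the 10 centred values was -0.14 and -0.18 in LN4, -0.05 and -0.15 in PC3, and 0.28 and 0.24 in Control lungs. Of genes outside the members, Ear1 (r = 0.986), Cox18 (0.97), Psenen (0.966), Pgf (0.965) and Il12a (0.962) followed this mean most closely over the 6 arrays, which share their normalization. Ear10 (0.939) and Ccn1 (0.939) were also among the closest 10. Ear1, an eosinophil-associated ribonuclease gene with close paralogs such as Ear10 that can share probes, was at 9.37 and 9.32 in LN4, 9.51 and 9.36 in PC3, and 9.82 and 9.70 in Control lungs. Ccn1 varied most over the arrays among these 10 (SD 0.47), and Psenen least (SD 0.05). With 6 arrays in 3 pairs, such values describe an order of arrays and carry no test.

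Markers of other cell types were set beside the same comparisons, in which 53.1% (LN4) and 46.6% (PC3) of all probe sets had a lower mean than in Control. Of the 9 alveolar and airway markers, 8 were lower in LN4 and 5 in PC3 than in Control lungs, with medians of -0.23 and -0.07. Their mean was 12.22 and 11.72 in LN4, 12.13 and 12.20 in PC3, and 12.19 and 12.25 in Control lungs, with LN4 replicate 3 lowest. Immune markers were mostly not above background: on any 1 array, 0 to 2 of 5 B cell, 0 to 2 of 7 neutrophil and 0 of 5 T cell markers exceeded the percentile of the negative controls. All 5 B cell markers were lower in LN4 and in PC3 than in Control lungs, with medians of -0.59 and -0.46. Their mean level was 6.59 and 6.40 in LN4, 6.62 and 6.73 in PC3, and 6.96 and 7.21 in Control lungs. Of 6 tested neutrophil markers, all 6 were lower in PC3 than in Control lungs (median -0.48) and 5 in LN4 lungs (median -0.15). The mean of the 7 neutrophil markers was 6.34 and 6.74 in LN4, 5.82 and 6.15 in PC3, and 6.25 and 6.85 in Control lungs. Of 6 endothelial markers, 6 were lower in LN4 and 4 in PC3 than in Control lungs, with medians of -0.28 and -0.21, and their mean was 10.32 and 9.92 in LN4, 10.27 and 10.28 in PC3, and 10.38 and 10.45 in Control lungs. Of 5 tested T cell markers, 4 were lower in each, with medians of -0.29 in LN4 and -0.21 in PC3 lungs. The part of these cells in the levels of the immediate early genes was not tested.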

How the data were processed

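Per the labels' protocols, 10 ug of total RNA from minced lung was labelled for each Affymetrix array. The deposited log2 values were made by RMA, per the submitters' processing notes, with software and version not given in the sources used here. RMA equalises the distributions of the arrays, so each value depends on all 6. The value table and the gene table were equal within 0.0001 for all 35556 probe sets. Per the file headers, a quality report deposited with them gives the percent of exon-level probe sets detected, the mean raw intensity of perfect match and background probes (290 to 522 and 306 to 431), a score for the size of the RMA model's residuals (0.159 to 0.242) and for the relative log expression (0.256 to 0.418), and the area under the curve separating positive from negative controls as a fraction (0.891 to 0.909). Arrays have no read depth, so their number limits the precision.

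From these values, 7116 control or unannotated probe sets and the 25% of the other 28440 with the lowest mean were left out. Of the 28440, 25004 had 1 symbol, 2 several and 3434 none. Symbols were updated through RefSeq GRCm38.p6 by accession (22271), symbol (1412) or older symbol (557), and 764 kept the file's name. One limma model with a mean for each of the 3 groups was fitted to all 6 arrays and moderated by empirical Bayes (3 residual and 3.885 prior degrees of freedom). All tests were two-sided. The spread is pooled over the groups, so the gap between the 2 LN4 lungs enters every SE. The scripts were tested on simulated data.

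Members, lists and tests were chosen with earlier results of these data known. Members are always named. From each list the rule takes, per comparison, the 3 genes of smallest p in each direction, of which the text gives some, chosen after their values were seen, and it takes the 10 genes most like the members' mean. Cxcl2, Ccl2 and Il6 among the effectors, and Ivl, Ly6g and Trac among the markers, were not tested. Fits used R 4.3.3 with limma 3.58.1, figures Python 3.11.15 with matplotlib 3.10.9.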

Additional observations from a re-analysis of the deposited data

Results flagged for a closer look

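Junb differed in direction between the conditioned media: both LN4 lungs lay above and both PC3 lungs below the Control mean. LN4 minus PC3 was 0.39 (SE 0.18), a difference that did not pass in limma (adjusted p = 0.842). Only LN4 replicate 3, the array with squamous and muscle markers, exceeded the percentile of the negative controls for Junb. LN4 minus Control was 0.10 without that array. Dusp1 did the reverse, with both LN4 lungs below and both PC3 lungs above the Control mean, and LN4 minus PC3 at -0.93 (SE 0.20, limma adjusted p = 0.842), while its PC3 and Control lungs overlapped.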

How the results depend on the processing

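The 40 changes of single genes were recomputed under alternatives. These were no filter or a filter of the lowest 50%, each array left out, 2 arrays left out and only the groups compared. The others were detection as a block, array weights, trend and robust moderation, and arrays centred on their median. The filters, the choice of groups, the block, the weights and the moderation cannot change a difference of group means here. Nor can leaving out an array of a group not compared. Under these settings the direction was fixed in advance, and only the side of the threshold could move. The alternatives gave 546 values. Of these, 531 kept direction and side of the threshold, 6 newly passed and 9 turned in direction. Without LN4 replicate 3 and PC3 replicate 4 together, 514 probe sets passed in PC3 minus Control, 200 in LN4 minus Control, 2593 in LN4 minus PC3 and 68 in conditioned media minus Control, where 0 passed with all arrays. That fit gave every member the same SE (0.21 in LN4 minus Control). It has 1 pair left, Control, to estimate the spread, and assumes that the lone arrays vary like it. In it the median of the members in PC3 minus Control was -0.46, Fosb was at 0.01 in LN4 minus Control, Fos at 0.01 in LN4 minus PC3 and Junb at -0.08 in conditioned media minus Control. With 1 array left out, the number of probe sets that passed lay between 0 and 853 in LN4 minus Control, 0 and 715 in LN4 minus PC3, and 0 and 427 in conditioned media minus Control, the highest each time without LN4 replicate 1. The PC3 minus Control median lay between -0.46 and -0.22, Fosb in LN4 minus Control between -0.30 and 0.01, Fos and Ier2 in LN4 minus PC3 between -0.31 and 0.04 and between -0.02 and 0.04, and Junb in conditioned media minus Control between -0.04 and 0.07. With detection as a block, 6 members in place of 3 were lower at an unadjusted p under 0.05 in LN4 minus Control, and array weights gave 1 in place of 2 in LN4 minus PC3. The mean over probe sets was not run, as each member has 1. No paired analysis was possible because the groups share at most 1 replicate number. Signals near the negative controls limit Fos, Fosb, Egr1, Junb and Atf3.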
